A study of Mus musculus with 20 samples.

Results

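The genes described here encode the proteins of the cytosolic ribosome, measured by bulk RNA sequencing in the mouse hippocampus. The rule that picks them uses the symbol and a count minimum. Protein-coding genes named Rpl or Rps with a number were taken, along with Rpsa, Rplp0, Rplp1 and Rplp2, and pseudogenes and the Rps6k kinases were left out. Of 86 such genes among 49671 in the tables, 84 had 10 or more counts in 5 or more of the 20 libraries and are called the members. Rpl10l and Rpl39l did not reach that level. All 84 also passed the expression filter of the gene test, which 18427 genes passed. By role, 46 members encode proteins of the large subunit and 31 proteins of the small subunit, 77 subunit genes in all. A further 6 (Rpl3l, Rps27l, Rps27rt, Rpl22l1, Rpl7l1 and Rpl36al) are paralogues, that is, copies of a ribosomal protein gene with a symbol of their own. The last, Rps19bp1, fits the symbol rule but encodes a protein that binds Rps19 and is no part of the ribosome.

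Ribosomal proteins assemble with ribosomal RNA into a small subunit, which reads the messenger RNA, and a large subunit, which joins amino acids. Most of the proteins are needed in about equal number. Their messengers are abundant and short, and share a pyrimidine tract at the very 5′ end through which growth signalling controls their translation. In the brain the same messengers also occur in the processes of neurons and glia.

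The mice were adult wild-type males, 10 to 12 weeks old, and each library came from the frozen hippocampus of 1 mouse, so the 5 libraries of a group are 5 animals. Control mice had no tumour and were given isotype antibody. ICI mice had no tumour and were given immune checkpoint inhibitors, which are antibodies to CTLA-4 (1 mg per dose, 3 doses a week) and PD-1 (200 µg per dose, 2 doses a week). Melanoma mice had been injected intradermally with the mouse melanoma line D4M-3A.UV2 (500000 cells per injection) and were given isotype antibody, and melanoma plus ICI mice had the same tumour cells and the inhibitors. Treatment followed 1 week after the cells, a course of 3 weeks is stated for the tumour-bearing mice, and tissue was taken 72 h after the last injection. All animals thus received an antibody, and no group was left untreated. The libraries held 21990624 to 25735149 counts. Markers of the dentate gyrus (6 genes), CA1 (4) and CA3 (4) were all detected, but so were those of the striatum (7), neocortex (7) and choroid plexus (9), so detection does not tell hippocampus from its neighbours. Marker scores, the mean log2 CPM of a list, differed between libraries. The dentate gyrus score ran from 3.58 to 6.48 in control, 4.25 to 6.44 in ICI, 3.35 to 5.75 in melanoma and 2.84 to 4.77 in melanoma plus ICI. The score of 7 striatal markers was 5.67 to 6.93 in 4 libraries (melanoma replicates 1, 3 and 5 and melanoma plus ICI replicate 3) and 3.04 to 3.97 in the other 16. The comparisons were also fitted without these 4 libraries, a choice made after seeing the data, and 0 members then had an unadjusted p below 0.05 in any of them, as 2.11 to 6.75% of all genes did. The labels used here name no sequencing batch. The deposited columns of ICI replicate 5 and melanoma plus ICI replicate 1 carry the same library number, 64, and what that number marks is not given in the sources used here.

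The pyrimidine tract can be read at the annotated start sites. RefSeq start windows of build GRCm38.p6 were at hand for 64 of the 84 members, with 76 starts. The 6 subunit genes below had the longest unbroken runs of C and T among the starts considered for printing. A run had to hold the first transcribed base or begin on the base after it. The starts of Rpl17 and Rps14 were not considered. Each window has 30 bases, 5′ to 3′ on the gene's strand, with 12 bases before the start, so that the base at position 13 is the first transcribed one. Capitals mark the run as far as it lies in the window. The runs of Rpl7a (21 bases) and Rpl34 (20 bases) begin before it.
Rpl7a (chr2:26910795-26910824, plus strand): CCCTCTTCTTTCTTTCTCCagcagccgagc
Rpl27a (chr7:109519183-109519212, plus strand): ttcgtgagCTCCTCCCTTTTCCCTTTCTgc
Rpl34 (chr3:130730320-130730349, minus strand): TCCTTTTCCTCTTCCggggacggtgctcag
Rpl35 (chr2:39005114-39005143, minus strand): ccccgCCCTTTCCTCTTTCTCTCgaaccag
Rpl15 (chr14:18270969-18270998, minus strand): ggagaaagCCTTCTTCCTTTCCTCTggcgg
Rpl14 (chr9:120571505-120571534, plus strand): cgggCCCTCTCTCTTCTCgctgagcgccgc
All 6 encode large subunit proteins. Next in length among the starts considered were Rpl35a of the large and Rps10 of the small subunit, with 13 bases each. Among the members' starts, 24 of 76 (31.6%) had such a run of 6 or more bases at the start, against 9.02% of all 32851 starts in the table. A run of 8 or more anywhere from 25 bases before to 50 bases after the start was present at 51 of 76 members' starts (67.1%) and at 27.2% of all starts. In the 300 bases around the start, the letters CCGGAAG, part of a site for ETS family factors, occurred on either strand at 34.2% of the members' starts and 8.86% of all. The letters AAGATGG, part of a site for the factor YY1, occurred at 15.8% and 6.34%. The letters TATAAA on either strand in the 50 bases before the start occurred at 1.32% and 3.5%. These are letter matches and show no binding, and several starts belong to 1 gene.

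The members' levels spanned a wide range. Values are in CPM, counts per 1000000 of the scaled library, and levels of different genes are compared as CPM per kilobase of the deposited gene length, which sums over all annotated exons. The 77 subunit genes had mean levels from 29.9 CPM (Rpl24) to 509 CPM (Rpl3), a range of 17.0-fold. Most of their proteins, by contrast, occur in about equal number in the ribosome. Per kilobase, the highest level belonged to Rplp1, which encodes an acidic protein of the large subunit stalk, at 605 ± 115 CPM per kilobase (SD, n = 20). Rps15, of the small subunit head, followed at 327 ± 60.2 CPM per kilobase. The next were Rps3a1 of the small subunit with 280 ± 57.8, Rpl8 near the peptidyl transferase centre with 247 ± 46.0 and Rpl17 at the peptide exit tunnel with 226 ± 39.8 CPM per kilobase. Among the genes just named, Rplp1 stands apart by more than 1 SD over libraries, and from Rps15 to Rpl17 neighbours differ by less. The levels of these genes rose and fell together over the libraries, so this SD does not tell how firm their order is. Their order within single libraries was not tested.

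The 5 lowest members per kilobase were Rpl3l at 0.305, Rps27rt at 1.57, Rps27l at 8.77, Rpl7l1 at 16.1 and Rps19bp1 at 16.3 CPM per kilobase, none of them a subunit gene by this length. Below rank 2 the order depends on the length used. With the length of the principal transcript in GENCODE M21, Rplp1 and Rps15 still ranked 1 and 2 of 84, ranks 3 to 5 went to Rpl3, Rps21 and Rps14, and the subunit gene Rps20 at rank 80 took the place of Rpl7l1 among the 5 lowest. Rpl3 went from rank 14 to 3 and Rpl9 from 45 to 7. The Spearman correlation of both orders over members was 0.692. Some counts can come from a neighbour. In 13 members, the genes that overlap them together hold more than 10% of the member's own count. Such members are Rpl3 (119%, Syngr1 being an overlapping gene), Rpl35 (90.2%, Arpc5l), Rps18 (77.3%, Vps52) and Rpl15 (75.1%, Nkiras1). Each percentage sums over all genes that overlap the member. Whether reads were assigned by strand is not given in the sources used here.

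Over the 20 libraries the log2 CPM of the 77 subunit genes had a median pairwise Pearson correlation of 0.939 (2926 pairs, 20 libraries), and 0.943 after the group means were removed. Between protein-coding genes outside the set the median was -0.00275. Over the 20 libraries all 77 correlated above 0.8 with the mean of the members, and 4 paralogues below: Rpl7l1 (0.703), Rps27l (0.596), Rps27rt (0.43) and Rpl3l (-0.489). All pairs share libraries and depth, so these values are a description. Much of the size comes from 2 libraries, described next: over the other 18 the median pairwise correlation was 0.673, with 99.2% of pairs positive. The correlation with the members' mean was then 0.136 for Rps15a, 0.514 for Rpl22 and 0.518 for Rps27, the lowest of the subunit genes. For the 4 paralogues it was 0.481 (Rpl7l1), 0.151 (Rps27l), 0.188 (Rps27rt) and -0.073 (Rpl3l).

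The members' summed share of all counts shows which libraries those are. In control replicates 1 to 5 the members held 1.18, 1.05, 1.04, 1.82 and 1.12% of all counts. In ICI replicates they held 1.01, 0.986, 1.16, 1.07 and 1.06%, and in melanoma replicates 1.09, 1.09, 1.24, 1.07 and 1.09%. In melanoma plus ICI replicates they held 1.52, 1.04, 1.07, 1.07 and 1.12%. Above all other libraries were control replicate 4 and replicate 1 of melanoma plus ICI, and the remaining 18 lay between 0.986 and 1.24%. The mean of the control group was 1.24 ± 0.328%, that of ICI 1.06 ± 0.0672%, that of melanoma 1.12 ± 0.0699% and that of melanoma plus ICI 1.16 ± 0.201% (SD, n = 5 each), so all groups overlap. Without these 2 libraries control had 1.10 ± 0.0655% and melanoma plus ICI 1.08 ± 0.0332% (SD, n = 4 each). In bulk tissue, more ribosomal messenger per cell and more cells rich in it cannot be told apart.

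**Figure D1:**
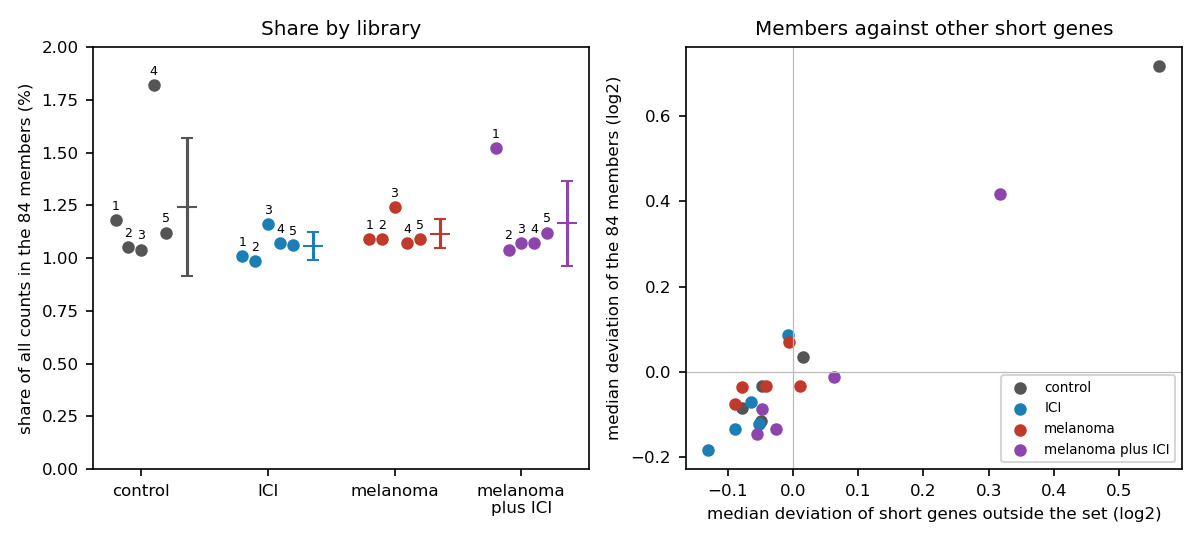
Left, share of all counts held by the 84 members in each library (percent), by group, with the replicate number at each point and mean ± SD (n = 5) beside it; right, median deviation of the members in each library (log2 CPM minus each gene's 20-library mean) against that of 1196 short protein-coding genes outside the set. Control replicate 4 (1.82%) and melanoma plus ICI replicate 1 (1.52%) lie above the other 18 libraries, and the short genes are also highest in these 2.

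Control replicate 4 was the highest of the 20 libraries for 81 of 84 members, and 83 members lay above their own 20-library mean both there and in melanoma plus ICI replicate 1. Against the mean of the other 18 libraries, the 77 subunit genes stood at a median of 1.72-fold in control replicate 4 (range 1.31 to 2.32) and 1.39-fold in melanoma plus ICI replicate 1 (range 1.18 to 1.85). Each of the 77 was above all 18 others in both libraries. The excess was not equal over genes. It was largest for Rpl24, a large subunit protein at the bridge to the small subunit, with 62.4 and 49.8 CPM in these 2 libraries against 27.0 ± 2.61 CPM in the other 18 (SD). It was smallest among subunit genes for Rps15a of the small subunit, with 148 and 133 CPM against 106 to 121 CPM in the others. Rpl3, which reaches towards the peptidyl transferase centre, was also near the low end, with 659 and 599 CPM against 496 ± 31.6 CPM in the 18 (SD). The order of the genes was alike in both libraries, with a Spearman correlation of 0.807 over the 77 genes, which share the same 18 libraries as reference. The ratio of large to small subunit counts was 1.43 and 1.46 in these libraries and 1.5 to 1.55 in the others.

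**Figure D2:**
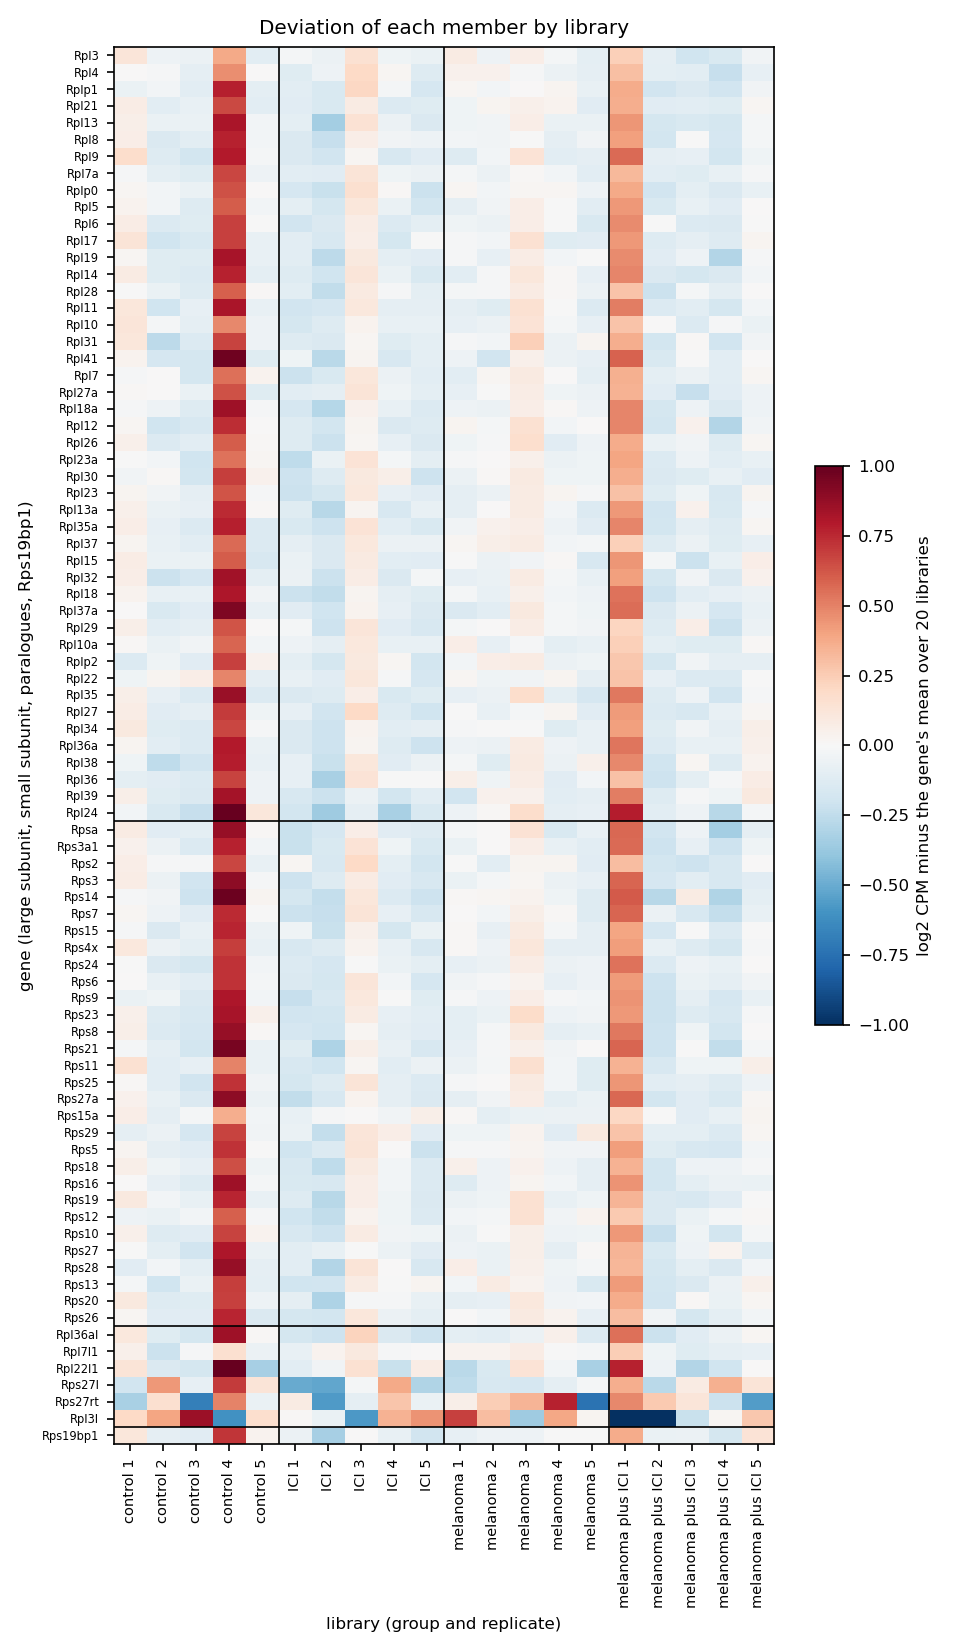
Deviation of 83 of the 84 members (rows, ordered by role and then by mean level) in each of the 20 libraries (columns), as log2 CPM minus the gene's mean over 20 libraries; the colour scale ends at -1 and 1. Control replicate 4 and melanoma plus ICI replicate 1 stand out in nearly every row, and Rpl3l is low in both.

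Other measures were taken in the same 2 libraries. Protein-coding genes outside the set with a gene length under 1500 bases (1196 genes) had a median log2 deviation of 0.56 and 0.32 there, those over 5000 bases (5813 genes) of -0.26 and -0.16, and the members of 0.72 and 0.42. Genes of the mitochondrial genome held 5.10 and 4.28% of counts, against 3.08 to 3.79% in the others. The red blood cell marker score, the mean log2 CPM of 5 genes, was 2.73 and 2.55. Control libraries ranged from 0.72 to 2.73, ICI libraries from -1.61 to 1.48, melanoma libraries from 0.70 to 2.58 and melanoma plus ICI libraries from 0.54 to 2.55. It reached 2.58 in melanoma replicate 5, where the members' median deviation was -0.075. The microglia score, the mean of 6 genes, was 4.98 in control replicate 4, the highest of the 20, and 4.71 in melanoma plus ICI replicate 1, with 4.48 to 4.81 in the other 18. The astrocyte score, the mean of 6 genes, was 7.86 and 7.93, the lowest of the 20, with 7.97 to 8.21 in the other 18. The choroid plexus score, the mean of 9 genes, was 0.85 and 1.16, where control libraries ranged from 0.64 to 6.79, ICI libraries from -0.06 to 5.15, melanoma libraries from 0.98 to 5.79 and melanoma plus ICI libraries from 1.16 to 6.83. Similar choroid plexus scores were found in control replicate 1 (0.64), melanoma replicate 2 (0.98) and, lower still, ICI replicate 1 (-0.06), where the members' median deviations were 0.035, -0.033 and -0.135, in this order. No marker of these lists was at 0 in all libraries. The part of these measures in the members' levels was not tested.

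Length was also set beside the excess among the subunit genes themselves. Over the 77 subunit genes, the log2 excess in control replicate 4 had a Spearman correlation of -0.179 with the length of the principal transcript, and that in melanoma plus ICI replicate 1 of 0.0477, as a description across genes. The Pearson correlations with log2 length were -0.292 and -0.038. The median excess in control replicate 4 was 0.79 for the 20 genes with a principal transcript under 600 bases and 0.74 for the 14 over 1200 bases. In melanoma plus ICI replicate 1 these medians were 0.44 and 0.51.

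**Figure D3:**
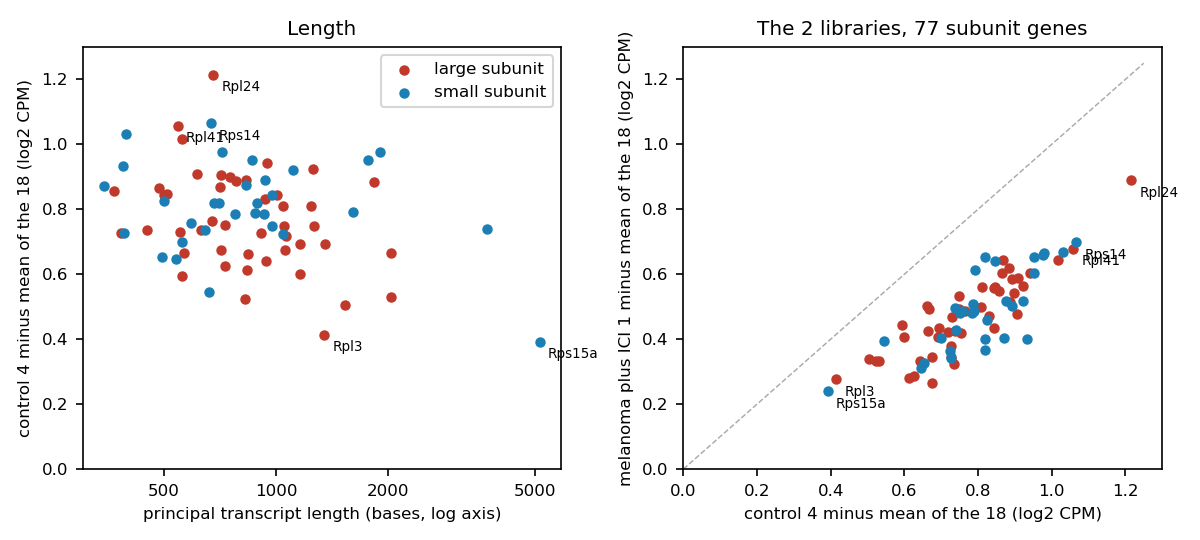
Left, excess of each subunit gene in control replicate 4 over the mean of the 18 other libraries (log2 CPM) against the length of its principal transcript (bases, log axis); right, the excess in melanoma plus ICI replicate 1 against that in control replicate 4, with the line of equality dashed. Rpl24 has the largest and Rps15a the smallest excess in both libraries, and the Spearman correlation with length on the left is -0.179.

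No member differed between groups after adjustment over all 18427 genes in any of 6 comparisons (edgeR quasi-likelihood test with Benjamini-Hochberg adjustment, 5 mice per group), and neither did any other gene. DESeq2 and limma voom also called 0 members. The voom fit also gave each library a weight by its quality, and on the same 20 libraries it gave other medians. With voom the median had the opposite sign for melanoma against control (0.014, 58 of 84 higher) and for the inhibitors added to melanoma (-0.037, 68 lower), and lay nearer 0 in the other 4 comparisons. In the edgeR fit the members' medians lay away from that of all genes, and 4 of the 6 had the opposite sign without the 2 libraries named above. The 2 to 4 marker lists with a median farthest from 0 are given beside the members, and their part in the members' values was not tested. The comparisons with control share the same 5 control libraries, replicate 4 among them. Differences are log2 fold changes of the first group minus the second, and counts at an unadjusted p below 0.05 are given with the share of all genes that reached it. With a median standard error of 0.142, the 95% interval of a pairwise difference had a median half-width of 0.30 on the log2 scale. The interaction is less precise, with a median standard error of 0.201 and a half-width of 0.42.

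ICI against control asks what the inhibitors do in tumour-free mice. The members' median was -0.22 beside -0.01 for all genes, with 83 of 84 members lower in ICI, and the smallest adjusted p was 0.766. At an unadjusted p, 3 members were lower and 0 higher, where 3.15% and 2.08% of all genes were, and 0.0% of all genes passed the adjusted threshold. With the choroid plexus score as a covariate 35 members had an unadjusted p below 0.05 (10.3% of all genes), with a median of -0.238. The median was -0.088 with the red blood cell score and -0.105 with the gene length trend removed, each with 0 members at an unadjusted p. In the fit without covariates the 3 were Rpl24, Rps27l and Rps19bp1. Rpl24 stood at 28.3, 26.0, 24.7, 62.4 and 31.2 CPM in control and 25.5, 22.6, 27.2, 23.0 and 25.9 CPM in ICI. These ranges overlap, with replicate 4 alone far above the rest. Its log2 fold change was -0.475 ± 0.219 (SE, edgeR adjusted p = 0.766), and -0.155 without control replicate 4. Rps19bp1 was at 14.5, 12.5, 12.3, 22.0 and 13.7 CPM in control and 12.8, 10.6, 13.4, 12.7 and 11.7 CPM in ICI, with a log2 fold change of -0.294 ± 0.138 (SE, edgeR adjusted p = 0.766) and of -0.121 without control replicate 4. Rps14, on the platform of the small subunit, had the next lowest value of all, -0.34. At the other end were Rpl7l1 with 0.02, Rps27rt with -0.015 and Rpl3 with -0.07. Without both libraries the median was -0.035, with 67 members lower and 17 higher, and 0 reached an unadjusted p below 0.05, as 4.87% of all genes did in that fit. Choroid plexus markers were lower in ICI for 9 of 9 (median -1.45), red blood cell markers for 5 of 5 (-1.09) and meningeal markers for 9 of 9 (-0.64).

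Melanoma against control asks for the effect of the tumour. The median of the members was -0.16 beside -0.01 for all genes, with 82 of 84 lower in melanoma and a smallest adjusted p of 0.877. No member reached an unadjusted p below 0.05, as 2.7% of all genes did upward and 2.41% downward, and 0.0% passed the adjusted threshold. The lowest values belonged to Rps27l (-0.376 ± 0.187), Rpl22l1 (-0.325 ± 0.229) and Rpl24 (-0.26 ± 0.219), and the highest to Rps27rt (0.28 ± 0.315), Rpl7l1 (0.03 ± 0.076) and Rpl3l (-0.02 ± 0.355), each with its SE. Without both libraries the sign of the median turned: it was 0.02, with 62 members higher and 22 lower. Striatal markers were higher in melanoma for 7 of 7, all 7 with an unadjusted p below 0.05 (median 2.47), and choroid plexus markers lower for 9 of 9 (-1.45). Without the 4 libraries high in striatal markers the members' median was -0.187, with 81 lower.

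Mice with both tumour and inhibitors were next set against control. The median was -0.115 beside 0.003 for all genes, and 83 of 84 members were lower. None reached an unadjusted p below 0.05, where 1.1% of all genes did upward and 1.28% downward, and again 0.0% passed adjustment. Rpl3l was lowest at -0.715 ± 0.37, followed by Rps2 and Rpsa, both small subunit proteins, at -0.19 each. Rps27rt (0.11), Rpl7l1 (-0.003) and Rps24 (-0.04) were at the other end. Rps2 showed the overlap of the groups: it stood at 265, 251, 251, 402 and 240 CPM in control and 314, 223, 219, 226 and 254 CPM in melanoma plus ICI. Without control replicate 4 alone the sign of the median turned (0.078), and without melanoma plus ICI replicate 1 alone it was -0.236. Without both libraries the median of the members was -0.043, with 73 lower. Dentate gyrus markers were lower for 6 of 6, 4 of them with an unadjusted p below 0.05 (median -1.06), and striatal markers higher for 7 of 7 (1.145).

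Melanoma plus ICI against melanoma asks for the effect of the inhibitors in tumour-bearing mice. Here the median was 0.05 beside 0.017 for all genes, with 67 members higher and 17 lower. None reached an unadjusted p below 0.05, while 2.63% of all genes did upward, 2.87% downward and 0.0% after adjustment. Rps27l (0.29 ± 0.186), Rpl22l1 (0.22 ± 0.229) and Rpl39 (0.16 ± 0.155) were highest and Rpl3l (-0.691 ± 0.37), Rps27rt (-0.165 ± 0.311) and Rpl37 (-0.046 ± 0.111) lowest (± SE). Without both libraries the sign turned, with a median of -0.067 and 78 members lower, and Rpl37 of the large subunit was the 1 member with an unadjusted p below 0.05 (-0.11, edgeR adjusted p = 0.695), where 7.11% of all genes were. The median of all genes was 0.009, so the members lay farther from it than with all 20 libraries. Choroid plexus markers were higher for 9 of 9 (median 1.503) and striatal markers lower for 7 of 7, 3 with an unadjusted p below 0.05 (-1.31). Without the 4 libraries high in striatal markers the members' median was 0.096.

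Melanoma plus ICI against ICI asks for the effect of the tumour in treated mice. The median was 0.11 beside 0.025 for all genes, with 79 members higher. None reached an unadjusted p below 0.05, against 4.12% of all genes upward, 4.51% downward and 0.0% after adjustment. Rpl24 (0.34 ± 0.219), Rps27l (0.31 ± 0.187) and Rpl39 (0.25 ± 0.155) had the highest values, and Rpl3l (-0.495 ± 0.376) and Rpl3 (-0.035 ± 0.098) the lowest (± SE). Without both libraries the median was -0.006 and the members were split, 34 higher and 50 lower. With the red blood cell score as a covariate it was -0.017, again with 50 lower. Dentate gyrus markers were lower for 6 of 6, 5 with an unadjusted p below 0.05 (median -1.15), and higher were meningeal markers for 9 of 9, 6 with such a p (1.02), choroid plexus markers for 9 of 9 (1.41) and striatal markers for 7 of 7 (1.09).

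The interaction sets the ICI difference with tumours against the ICI difference without them. The members' median was 0.27 beside 0.025 for all genes, and 81 of 84 were above 0. At an unadjusted p, 2 members were above and 0 below 0, where 5.99% and 4.28% of all genes were, and 0.0% passed adjustment. With the choroid plexus score as a covariate 47 members had an unadjusted p below 0.05 (24.1% of all genes), with a median of 0.366. The median was 0.132 with the red blood cell score and 0.107 with the gene length trend removed. In the fit without covariates the 2 were Rps27l and Rpl39, a small protein that lines the peptide exit tunnel. Rpl39 stood at 46.8, 41.3, 40.6, 80.2 and 43.3 CPM in control, 40.2, 38.7, 43.2, 39.6 and 41.9 CPM in ICI, 39.4, 46.3, 46.4, 41.8 and 42.3 CPM in melanoma, and 64.2, 41.1, 44.6, 43.6 and 48.0 CPM in melanoma plus ICI. Again 1 library each in control and in melanoma plus ICI lay above all the rest, and the other 18 values lay between 38.7 and 48.0 CPM. The interaction of Rpl39 was 0.468 ± 0.219 (SE, edgeR adjusted p = 0.484), and 0.249 without control replicate 4. Rpl24 had a value of 0.60 ± 0.309, and Rpl3l (-0.471 ± 0.516), Rps27rt (-0.15 ± 0.447) and Rpl7l1 (-0.06 ± 0.107) were lowest. Without both libraries the members' median was -0.034, with 59 below 0, and the 1 member with an unadjusted p below 0.05 was Rpl7l1 (-0.167, edgeR adjusted p = 0.579), where 7.99% of all genes had such a p. Above 0 were 9 of 9 choroid plexus markers (median 2.84), 9 of 9 meningeal markers (1.27) and 5 of 5 red blood cell markers (0.98), and below 0 were 7 of 7 striatal markers (-1.29).

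**Figure D4:**
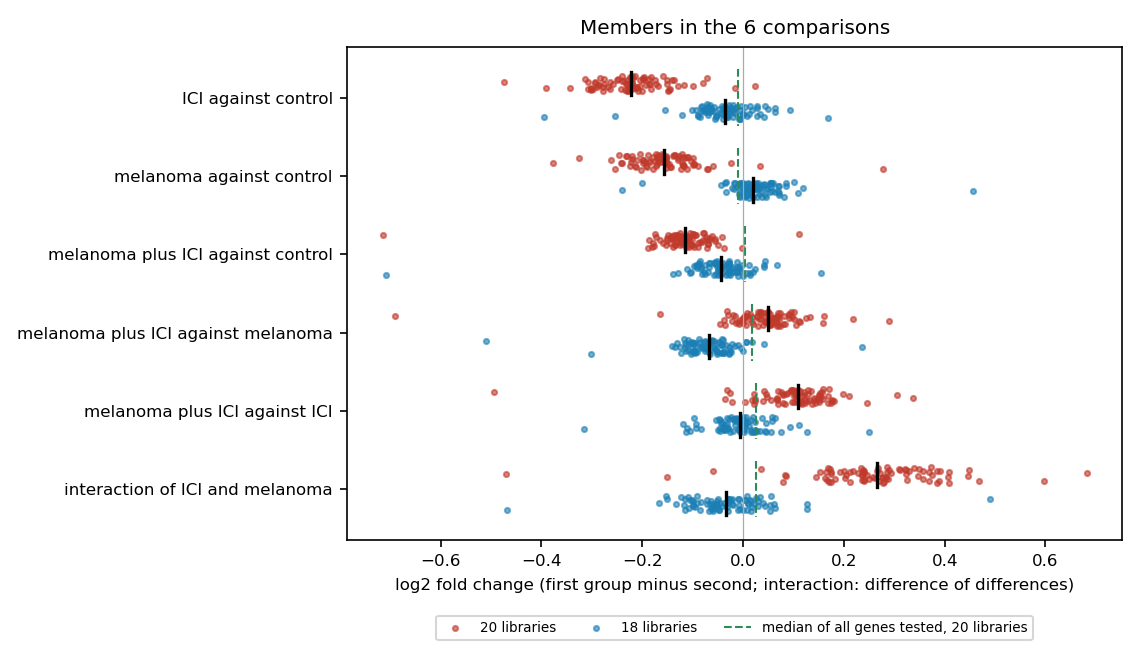
Log2 fold change of each of the 84 members in the 6 comparisons, fitted on all 20 libraries (red) and without control replicate 4 and melanoma plus ICI replicate 1 (blue, 18 libraries); black bars are the members' medians and green dashed lines the median of all genes tested in 20 libraries. The blue medians lie between -0.067 and 0.02, and 4 of 6 have the opposite sign to the red ones.

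By subunit the values were alike. In ICI against control the median was -0.21 for the large and -0.23 for the small subunit, all 46 and all 31 lower. In the interaction it was 0.25 and 0.27, all 46 and all 31 above 0. The members with the opposite sign in these comparisons, Rpl7l1 in the former and Rpl3l, Rps27rt and Rpl7l1 in the latter, are all paralogues.

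The paralogues varied in their own ways. Rpl3l, known for its expression in heart and skeletal muscle, has 74.9% identity to Rpl3 over the aligned bases of their longest open reading frames, and its level per kilobase was 534-fold below that of Rpl3, or 1040-fold below with principal transcript lengths. It was the member with the largest spread (SD 0.541 of log2 CPM over 20 libraries), with at most 20 counts in any library, so counting error is large. Rpl3l was at 0.549, 0.638, 0.911, 0.277 and 0.533 CPM in control and 0.164, 0.163, 0.387, 0.474 and 0.578 CPM in melanoma plus ICI, which overlap. It was low in both libraries in which the others were high, and its correlation with the mean of the members was -0.489 over 20 libraries and -0.073 over 18.

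Rps27rt, a copy of Rps27 in a single exon, has 24 counts at most, and its longest open reading frame is identical to that of Rps27 in all 255 bases, so reads there could come from either. It also overlaps Osbpl10, which holds 5260% of its count. Its SD was 0.413, the next largest, and its levels ran from 0.304 to 1.02 CPM, both in melanoma. Rps27l, known as a target of p53, has 76.1% identity to Rps27 over aligned bases of their longest open reading frames (318 and 255 bases). It was at 6.11, 9.48, 6.61, 11.4 and 7.63 CPM in control, 4.89, 4.86, 6.91, 9.10 and 5.64 CPM in ICI, 5.84, 6.23, 6.19, 6.57 and 6.90 CPM in melanoma, and 9.03, 5.78, 7.39, 8.96 and 7.65 CPM in melanoma plus ICI. The groups overlap in every pairing. Its interaction of 0.682 ± 0.264 (SE, edgeR adjusted p = 0.484) lay between 0.549 and 0.861 when any 1 library was left out, and was 0.49 without both libraries.

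Rpl22l1, which can stand in for Rpl22, correlated at 0.908 with the members' mean over 20 libraries and at 0.419 over the other 18. It stood at 2.24-fold of the mean of the other 18 libraries (35.0 ± 3.92 CPM, SD) in control replicate 4 and 1.83-fold in melanoma plus ICI replicate 1. Whether it lies above or below Rpl22 depends on length, since the ratio of Rpl22 to Rpl22l1 per kilobase was 1.62 with the deposited and 0.639 with the principal transcript length. Rpl36al, with 87.9% identity to Rpl36a, had 48.8 CPM on average beside 70.1 CPM and followed the common pattern, with 86.0 and 70.3 CPM in those 2 libraries. Rpl7l1, known for early large subunit assembly, was the steadiest member (SD 0.101, from 36.1 to 49.7 CPM), ahead of Rps15a (0.112) and Rpl3 (0.138). The most variable subunit gene was Rpl24 (0.354).

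**Figure D5:**
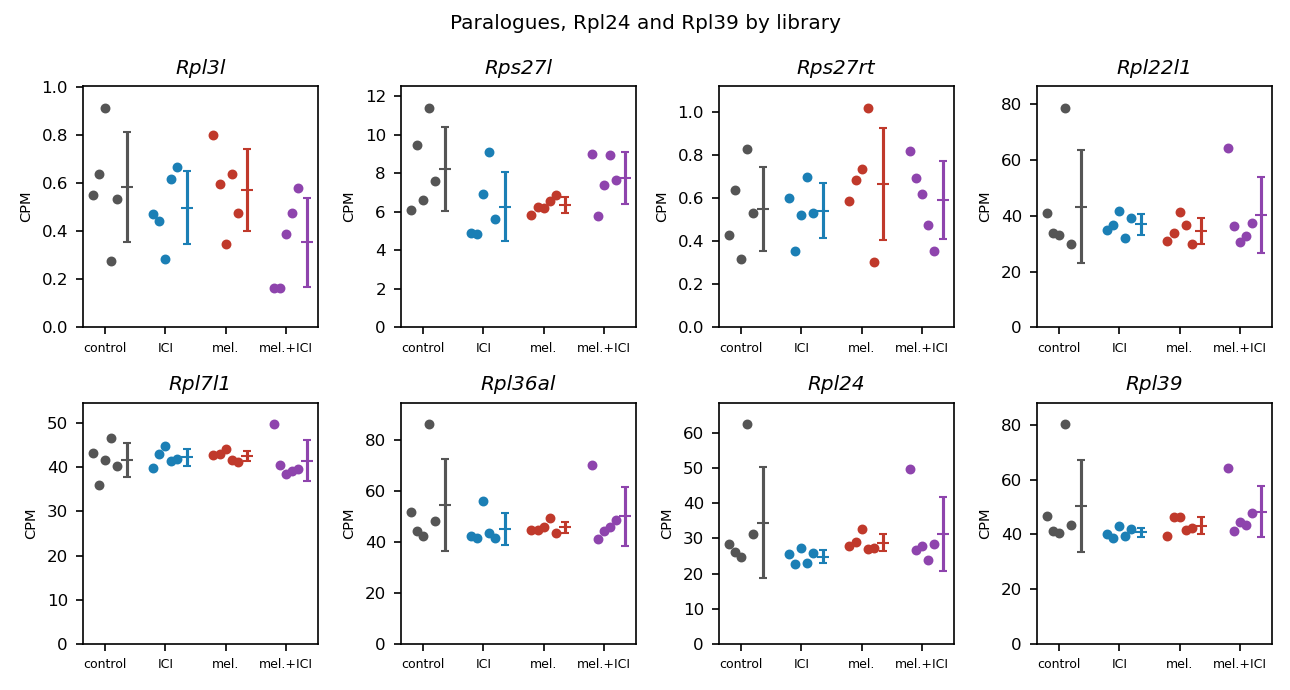
CPM of the 6 paralogues, Rpl24 and Rpl39 in each of 20 libraries by group (mel., melanoma), points in replicate order, with mean ± SD (n = 5) at the right of each group; each axis starts at 0 and has its own scale. All but Rpl3l have their highest control point at replicate 4 and their highest melanoma plus ICI point at replicate 1.

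The members' spread depended on the libraries counted. Their median SD over 20 libraries was 0.219 on the log2 scale, beside 0.266 for all genes tested. Over the other 18 libraries it was 0.0921, beside 0.222 for all genes tested. Protein-coding genes outside the set with a mean level at or above the lowest subunit gene had 0.178 over 20 and 0.126 over 18. The members thus varied more than these over the 20 libraries. The 18 leave out the 2 libraries highest in the members' share, so a fall of the members' spread was built in. No reading is drawn from their lower value over the 18.

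Other genes of translation were read from fixed lists in the same fit, and none passed the adjusted threshold. The genes outside the set whose log2 CPM correlated best with the members' mean were Fau (Pearson 0.989, 20 libraries), which encodes a small subunit protein fused to a ubiquitin-like one, Eif1 (0.982), a factor for start codon choice, and Cox7a2l (0.981), of the respiratory chain, tied with Timm13. The 78 mitochondrial ribosomal protein genes had median deviations of 0.57 and 0.35 in the 2 libraries, with a median of -0.14 in ICI against control (74 of 78 lower) and 0.24 in the interaction (78 of 78 above 0). Without the 2 libraries these medians were 0.01 (34 of 78 lower) and 0.02 (44 above 0). The 40 nuclear genes of the respiratory chain had 0.75 and 0.45, with -0.22 (40 of 40 lower) and 0.38 (40 of 40 above 0), and without the libraries -0.017 (29 lower) and 0.055 (32 above 0). The 52 ribosome assembly factors tested stood at 0.13 and 0.10 in the 2 libraries and at 0.03 and -0.017 in these comparisons (0.06 and -0.047 without the libraries), and the 19 regulators of translation at -0.135 in both libraries. The 30 initiation factors stood at 0.38 and 0.32 in the 2 libraries and at -0.06 in ICI against control and 0.09 in the interaction, both with the opposite sign without the libraries (0.04 and -0.045). The 12 elongation and binding factors with a like pyrimidine tract stood at 0.29 and 0.17 in the libraries and at -0.105 and 0.09 in those comparisons, or -0.036 and -0.017 without the libraries. Short protein-coding genes outside the set had -0.18 in ICI against control and 0.30 in the interaction, beside -0.22 and 0.27 for the members. Without the 2 libraries they had -0.03 and 0.06, beside -0.035 and -0.034.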

How the data were processed

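Each library was deposited as a table of raw counts per gene, which the authors' labels call raw counts and whose headers give coordinates and gene length. Per the submitters' processing notes the tools were STAR 2.5.2b and DESeq2 1.16.1; build, strandedness and the handling of reads with several places are not given in the sources used here. Of 49671 identifiers, 49412 are in GENCODE M21 (GRCm38), 45214 with the same start and end, and it gave the symbols. The deposited counts of 20 libraries were tested with edgeR 4.0.16 in R 4.3.3: filterByExpr, TMM scaling, a robust quasi-likelihood fit with 1 mean per group, Benjamini-Hochberg adjustment within a comparison and a threshold of 0.05. Standard errors come from the fold change and its test statistic. Log2 CPM used a prior count of 2. A 95% interval gives the uncertainty of a difference between group means, estimated from the spread between mice. Alternatives were DESeq2 1.42.0, its size factors, limma 3.58.1 voom with a quality weight per library, no filter and only the 2 groups compared. Others were a replicate block, removal of a gene length trend, marker scores as covariates, and left-out libraries. The script was tested on simulated data.

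Members and lists were chosen with earlier results of these data known. Named genes are, by a written rule, the 3 highest and 3 lowest members of each comparison, those with an unadjusted p below 0.05, the 5 highest and 5 lowest per kilobase, the 3 most and 3 least variable, all paralogues, and the 3 other genes most like the members' mean, save for values not reported here. Genes named for start windows, overlaps, a change of rank, their excess in the 2 libraries or their correlation over 18 were chosen after their values were seen. Principal transcript lengths and the values of single members and of gene lists without both libraries, and the fit without 4 libraries high in striatal markers, were added after seeing the data. The 280 named ribosomal pseudogenes held 0.277 to 0.327% as many counts as the members. The values of some single genes are not reported here.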

Additional observations from a re-analysis of the deposited data

Results flagged for a closer look

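Several values lay apart from the other 4 of their group, with a gap to the nearest above 0.71 of the group's range (Dixon's limit for 5 values, which chance passes in about 1 group in 20). In control, replicate 4 did so for the members' share of counts (1.82%), Rplp1 (511 CPM), Rps15 (345 CPM), Rpl24 (62.4 CPM), Rpl39 (80.2 CPM) and Rpl22l1 (78.5 CPM). In melanoma plus ICI, replicate 1 did so for the share (1.52%), Rplp1 (385 CPM), Rps15 (268 CPM), Rpl24 (49.8 CPM), Rpl22l1 (63.97 CPM) and Rpl7l1 (49.7 CPM). Over all 84 members, 73 set control replicate 4 apart and 55 melanoma plus ICI replicate 1. Rpl3 in ICI replicate 3 (564.54 CPM) and the share in melanoma replicate 3 (1.24%) also passed the limit, in libraries where 12 and 10 of the 84 members were set apart.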

How the results depend on the processing

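No member passed the adjusted threshold under any alternative. For all genes, DESeq2 called 1 gene in ICI against control, 8 with melanoma set against control, 9 with the tumour added to ICI and 47 in the interaction. Limma voom called 1 when melanoma was set against control, 25 when melanoma plus ICI was set against melanoma, and 19 in the interaction. With only the 2 groups compared, 3 were called in melanoma against control, and without the 2 libraries rich in members 1 in the interaction. With any 1 library left out, the number called ran from 0 to 3 when melanoma was set against control, from 0 to 12 with the inhibitors added to melanoma, and from 0 to 11 for the interaction; the highest counts came without melanoma plus ICI replicate 3.

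The members' median in the interaction (0.27) was 0.023 with voom and -0.034 without the 2 libraries, a move beyond the pooled spread between mice (0.22). With voom the other medians were -0.067, 0.014, -0.018, -0.037 and 0.045 in the order of the report, 2 of them with the opposite sign. Without 1 library it ran from 0.09 (without control replicate 4) to 0.33. Without control replicate 4 the median was -0.035 for ICI, 0.02 for melanoma and 0.08 for both, each against control, and without melanoma plus ICI replicate 1 it was -0.076 in melanoma plus ICI against melanoma and -0.017 against ICI. Without the 4 libraries high in striatal markers, an alternative added after seeing the data, medians ran from -0.23 to 0.324 with no change of sign, and 1 gene was called with the inhibitors added to melanoma. With the gene length trend removed, medians ran from -0.105 to 0.107. With the choroid plexus score as a covariate, 35 members had an unadjusted p below 0.05 in ICI against control and 47 in the interaction, where 10.3% and 24.1% of all genes did. With the red blood cell score, 0 did in either, with 1.89% and 5.2% of all genes, and the medians were -0.088 and 0.132; that of melanoma plus ICI against ICI turned to -0.017. With the replicate block, the medians were -0.21, -0.14, -0.10, 0.04, 0.10 and 0.25 in the order of the report, with 0 calls. Same-numbered libraries correlated between -0.35 and 0.528 over 30 pairs, with a mean of 0.0317 beside -0.00678 for differently numbered pairs. Of the 20 libraries, 8 correlated best with their own number. This check does not decide whether the numbers pair the mice. The cause of these shifts was not tested.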
